A study of Mus musculus with 8 samples.

Results

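Lama4 and Lama5 are the genes of the laminin α4 and laminin α5 chains, and they were picked from the gene tables by their symbols alone, as 2 of 31053 genes. Their raw counts of unique molecular identifiers (UMIs) were followed through the cell classes of the mouse brain cortex and along the endothelium from artery to vein. The study held 4 groups of mice aged 8 weeks, each group a pool of 3 brains perfused with cold PBS. The groups were Lama4-/- mice, their wild-type (WT) controls, Tek-Cre:Lama5-/- mice, and a separate WT group as the control of the latter. Tek, also known as Tie2, drives Cre recombinase in endothelial cells and in part of the blood lineage, so Lama5 deletion was aimed at those cells and not at mural cells or glia. The label of the Lama4-/- mice names no Cre driver. Single-cell suspensions were made into 3′ libraries on the Chromium platform. Each group has 2 samples, but both Lama4-/- samples hold the same counts for the same barcodes and were counted as 1 library, which left 7 distinct libraries.

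Laminins are cross-shaped trimers of an α, a β and a γ chain that form the scaffold of basement membranes. The endothelial basement membrane of the brain is known for the α4 and α5 chains, which endothelial cells bind through integrins and other receptors. The α4 chain lacks the short arm by which other laminins polymerise, while the α5 chain is a full-length chain, and around the venules of brain and other tissues the α5 chain is known to be patchy. Lama4 (ENSMUSG00000019846) lies on chromosome 10 of GRCm38 at 38965515 to 39110188, plus strand, and its longest coding transcript has 38 exons and 1816 codons. Lama5 (ENSMUSG00000015647) lies on chromosome 2 at 180176373 to 180225859, minus strand, with 79 exons and 3718 codons. No annotated gene overlapped Lama4. Lama5 overlapped the microRNA gene Mir7005 on its own strand, away from the 3′ end where these libraries are read. The labels do not say which exons were deleted. A 3′ read outside the deleted part would still be counted, so the Lama5 UMIs left in Tek-Cre:Lama5-/- cells do not measure how completely the gene was deleted.

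The 7 libraries held 35479306 to 48314458 UMIs. After filtering, 47239 cells remained, with a median of 2901 to 6543 UMIs per cell, deeper in the Lama4 experiment. Cells were clustered anew and clusters were named from marker lists, so class names carry "-like". Levels are given as CPM, the UMIs of a gene per 1000000 UMIs of the same cells. The 8 endothelial markers summed to 19649 to 24407 CPM in endothelial-like cells and to 95.4 to 176 CPM in microglia-like cells. The suspensions, labelled as cortex, also held choroid plexus epithelium-like, ependymal-like and neuroblast-like cells. The 3 groups with 2 distinct libraries had libraries that differed by more than sampling noise, and any pair of libraries shared 5 to 22 barcodes. Libraries of a group came from the same pool of mice, so their spread and every p-value below leave out the spread between mice. A 3′ UMI count does not scale with transcript length, but capture can differ between genes, so levels of the 2 chains are set side by side only as shares of their joint UMIs.

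Lama4 was read highest in pericyte-like cells, the mural cells that wrap capillaries. It stood there at 240.3 and 246 CPM in the WT libraries of the Lama4 experiment and at 156 and 164 CPM in those of the Lama5 experiment. The WT libraries of the Lama4 experiment were the higher pair, a difference between experiments that was not tested. Endothelial-like cells stood at 45.6 and 44.8 CPM in the Lama4 experiment and at 29.6 and 31.0 CPM in the Lama5 experiment. Smooth muscle-like cells stood at 44.5 and 42.3 CPM and at 44.7 and 50.1 CPM, where the Lama5 experiment was slightly the higher, although the Poisson intervals of the 4 libraries overlap. The cluster led by Tagln held 68.7% of these cells in the WT of the Lama4 experiment and 38.4% in that of the Lama5 experiment, and the cluster led by Rgs5, which had more Lama4, held 31.3% and 61.7%. The order of Lama4 in the WT was thus pericyte-like first in 4 of 4 libraries, while endothelial-like and smooth muscle-like cells were near each other in the Lama4 experiment and apart in the Lama5 experiment.

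Lama5 had another order. Smooth muscle-like cells stood at 155 and 156 CPM in the WT libraries of the Lama4 experiment and at 137 and 121 CPM in those of the Lama5 experiment. Endothelial-like cells came next, at 61.8 and 63.1 CPM and at 42.6 and 41.8 CPM. Pericyte-like cells were far below, at 12.9, 10.0, 4.67 and 6.82 CPM, from 27 UMIs in 929 cells. The level in smooth muscle-like cells was above that of endothelial-like cells in 4 of 4 WT libraries, and the level in pericyte-like cells was below both in 4 of 4. As a share of the UMIs of both chains, Lama4 made up 94.9% to 97.1% in pericyte-like cells and 21.3% to 29.2% in smooth muscle-like cells of the WT. In endothelial-like cells this share was 42.4% and 41.5% in the Lama4 experiment and 41.0% and 42.6% in the Lama5 experiment, although the level of each chain differed between the experiments.

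**Figure D1:**
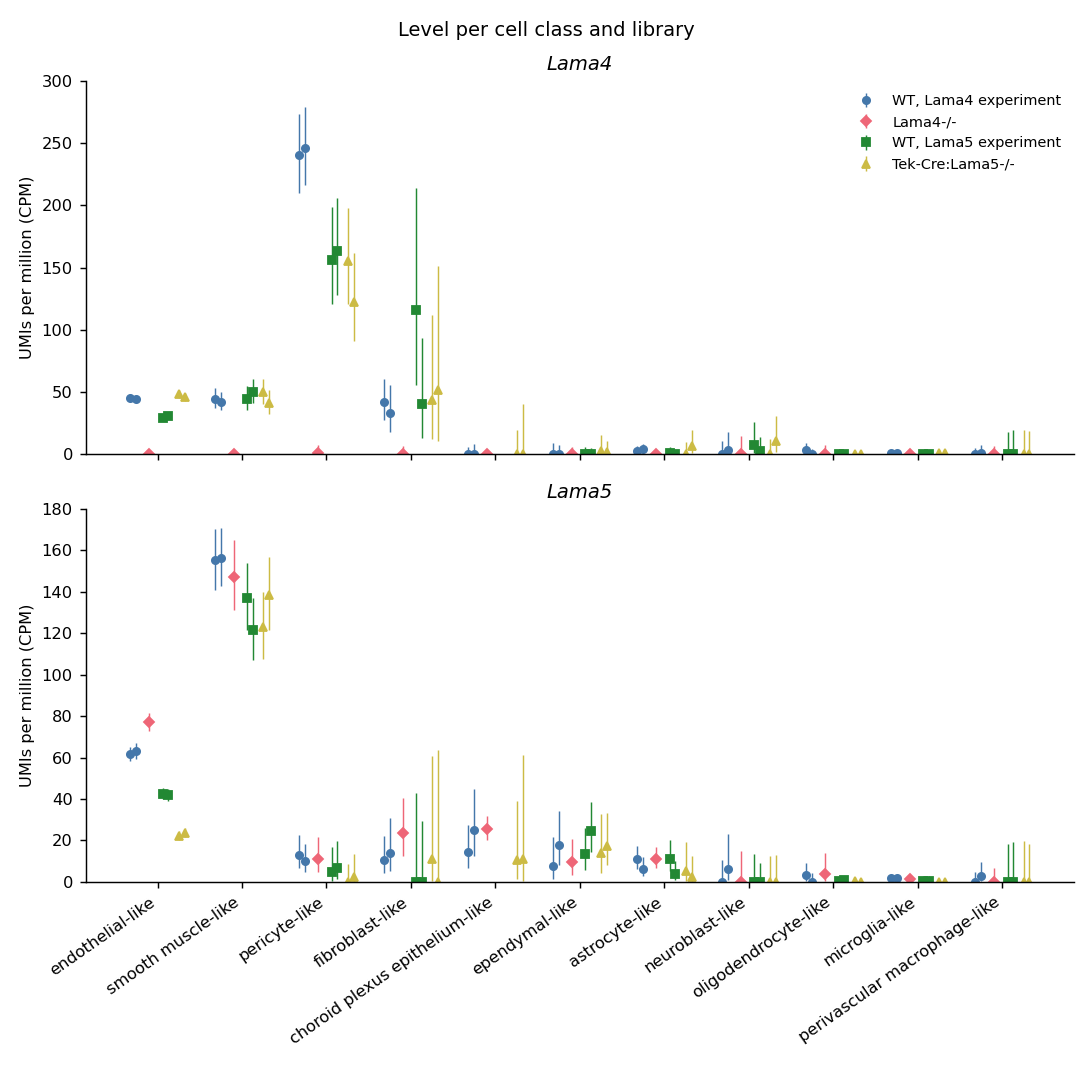
Level of Lama4 (top) and Lama5 (bottom) in CPM for 11 cell classes, 1 point per library with at least 5 cells of the class, bars giving the exact Poisson 95% interval. Pericyte-like cells led for Lama4 and smooth muscle-like cells for Lama5, and the Lama4-/- library lay at or near 0 for Lama4.

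Over the 3 larger mural clusters the chains ran in opposite orders in each of the 4 WT libraries. The main pericyte-like cluster, led by Vtn, Kcnj8 and Abcc9, had 269 and 304 CPM of Lama4 in the WT of the Lama4 experiment and 155 and 166 CPM in that of the Lama5 experiment. A small cluster led by Col3a1 and Ifitm1 met 7 pericyte and 7 smooth muscle markers and took the pericyte name only by the order of the lists. It had 144 and 119 CPM of Lama4, from 31 and 37 UMIs, and 180.5 and 127 CPM from 5 and 3 UMIs, and its Lama5 rested on 5 UMIs in the WT, at 9.28, 9.61, 0 and 0 CPM. The smooth muscle-like cluster led by Rgs5 had 61.8, 71.7, 53.0 and 61.5 CPM. The smooth muscle-like cluster led by Tagln, Myl9 and Myh11, genes of the contractile apparatus, had 38.4, 34.3, 34.1 and 37.4 CPM, the lowest of the 4 mural clusters in each WT library. Lama5 was highest in this last cluster, at 173, 166, 149 and 147 CPM. The Rgs5-led cluster followed at 103, 119, 128 and 98.6 CPM, and the main pericyte-like cluster stood at 13.9, 10.2, 4.99 and 7.21 CPM. These orders are descriptions of clusters, with no test.

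Among the rarer classes, fibroblast-like cells had 41.6, 33.1, 116 and 40.2 CPM of Lama4 in the 4 WT libraries, but the 111 cells gave only 56 UMIs and the highest value rests on 10 of them. Their Lama5 rested on 13 UMIs. Choroid plexus epithelium-like cells, which secrete cerebrospinal fluid, had Lama5 without Lama4: 20 UMIs against 0 in 54 WT cells, at 14.4 and 25.1 CPM in the 2 WT libraries of the Lama4 experiment. Ependymal-like cells, the ciliated lining of the ventricles, had 38 UMIs of Lama5 against 0 of Lama4 in 153 WT cells, with Lama5 between 7.496 and 24.5 CPM. For Lama4 the exact Poisson 95% interval of a count of 0 reaches 3.46 CPM in the choroid plexus class and 1.65 CPM in the ependymal class. Astrocyte-like cells had 3.95 to 11 CPM of Lama5 and 0 to 3.89 CPM of Lama4. A cluster of 15 endothelial-like cells led by Plvap, a gene of fenestrated endothelium, gave too few UMIs to rank, with 11 of Lama4 in its 6 WT cells.

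Microglia-like cells and the other myeloid and lymphoid classes were read for comparison. Whether their few UMIs are background or expression was not tested. Microglia-like cells had 0.480 to 1.79 CPM of Lama5 and 0 to 0.796 CPM of Lama4 in the WT. Pooled WT Lama5 was 1.07 CPM in perivascular macrophage-like (2 UMIs) and 4.14 CPM in monocyte or dendritic-like cells (5 UMIs). It was 4.55 CPM in B lineage-like (2 UMIs) and 7.24 CPM in T or NK-like cells (3 UMIs). Lama4 was 9.10 CPM in B lineage-like cells (4 UMIs) and at most 0.828 CPM in the others. The Poisson 95% interval in T or NK-like cells, 1.49 to 21.2 CPM, held the pooled pericyte-like (9.64) and astrocyte-like (8.15) levels of Lama5. With every cell thinned to 1500 UMIs, 0.267% of microglia-like cells had a Lama5 UMI, against 6.58% of endothelial-like and 18.6% of smooth muscle-like cells. Without thinning the shares were 0.925%, 20.9% and 51.6%. For Lama4 the thinned shares were 0.107% in microglia-like, 4.79% in endothelial-like and 27.7% in pericyte-like cells. The thinned share of Lama5 in pericyte-like cells was 1.42% and in astrocyte-like cells 0.727%. Median depths per library were 2796 to 7234 UMIs in microglia-like and 2591 to 5915 UMIs in endothelial-like cells. Of the WT cells, 785 of 14547 endothelial-like and 475 of 4216 microglia-like cells were too shallow to thin. Neutrophil-like cells had 0 UMIs of either gene in 66 WT cells, where the exact Poisson 95% interval reaches 12.6 CPM.

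Endothelial-like cells were placed along the vessel by 12 arterial and 10 venous marker genes, neither list holding Lama4 or Lama5. A cell whose arterial score was at least 0.75 standard deviations and above its venous score was called arterial zone, the mirror rule gave the venous zone, and cells under 0.25 on both were called capillary zone. Scores were scaled within each library. Over the 7 libraries 3161 of 26391 cells were arterial, 2085 venous and 16459 capillary, and 4686 lay between. These zones are ranges of a score and not cell types, and 3532 cells lay within 0.1 of a boundary. The arterial zone held 11.2% to 13.1% of endothelial-like cells, and the venous zone 7.54% to 8.51%. Venous-zone cells had the highest median depth, 7547 to 17154 UMIs, against 2218 to 5231 UMIs in the capillary zone. The clusters behind the class differed by experiment: clusters 4 and 5 held 46.1% and 35.2% of WT endothelial-like cells in the Lama4 experiment but only 50 and 49 such cells in the Lama5 experiment, where clusters 0, 2 and 1 held 33.7%, 20.6% and 19.6%.

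Lama5 fell from artery to vein in the WT. In the arterial zone it stood at 104.8 and 93.5 CPM in the WT libraries of the Lama4 experiment and at 64.9 and 62.9 CPM in those of the Lama5 experiment. In the capillary zone it stood at 53.6, 63.2, 38.2 and 39.1 CPM. In the venous zone it stood at 35.2, 30.5, 36.2 and 30.1 CPM. The arterial value was the highest of the 3 zones in 4 of 4 WT libraries, and the venous value the lowest. In a fit over the 4 WT libraries with each library as a block, Lama5 was higher in the arterial than in the capillary zone by 0.74 on the log2 scale (SE 0.101, edgeR quasi-likelihood adjusted p = 2.72e-05). This contrast called 42.3% of the 11514 genes tested, so a call by itself is common here. The venous zone was lower than the capillary zone, with a log2 difference of -0.51 (SE 0.116, edgeR adjusted p = 0.00326), where 36.3% of genes were called. Between the arterial and the venous zone the log2 difference was 1.25 (SE 0.118, edgeR adjusted p = 5.1e-07), with 41.8% of genes called.

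The step from capillary to vein was not alike in both experiments. The ratio of venous to capillary Lama5 was 0.658 and 0.483 in the WT libraries of the Lama4 experiment and 0.947 and 0.768 in those of the Lama5 experiment. In the Lama5 experiment alone the venous difference was -0.24 on the log2 scale, and it did not pass the threshold (edgeR adjusted p = 0.0665). A test of the difference between experiments, added after these values were seen, gave 0.52 (SE 0.161, edgeR adjusted p = 0.0292) for vein minus capillary, where 10.2% of genes were called. The call was kept in 6 of 14 alternatives: it was lost at 0.31 without WT library 2 of the Lama4 experiment (edgeR adjusted p = 0.321) and at 0.36 without WT library 1 of the Lama5 experiment (edgeR adjusted p = 0.403), and leaving out 1 library gave 0.31 to 0.74. For artery minus vein the test gave -0.59 (SE 0.167, edgeR adjusted p = 0.0217), where 6.26% were called. This call was kept in 9 of 14 alternatives and was lost without either WT library of the Lama5 experiment, at -0.48 and -0.70. The arterial step over capillaries differed by -0.07 between the experiments (SE 0.124, edgeR adjusted p = 0.862), and 4.91% of genes were called. Placing cells by their cluster in place of their score gave an arterial difference over capillaries of 1.27. That contrast covers other cells: of the 3161 cells arterial by score, 1011 were arterial by cluster and 2137 lay between.

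**Figure D2:**
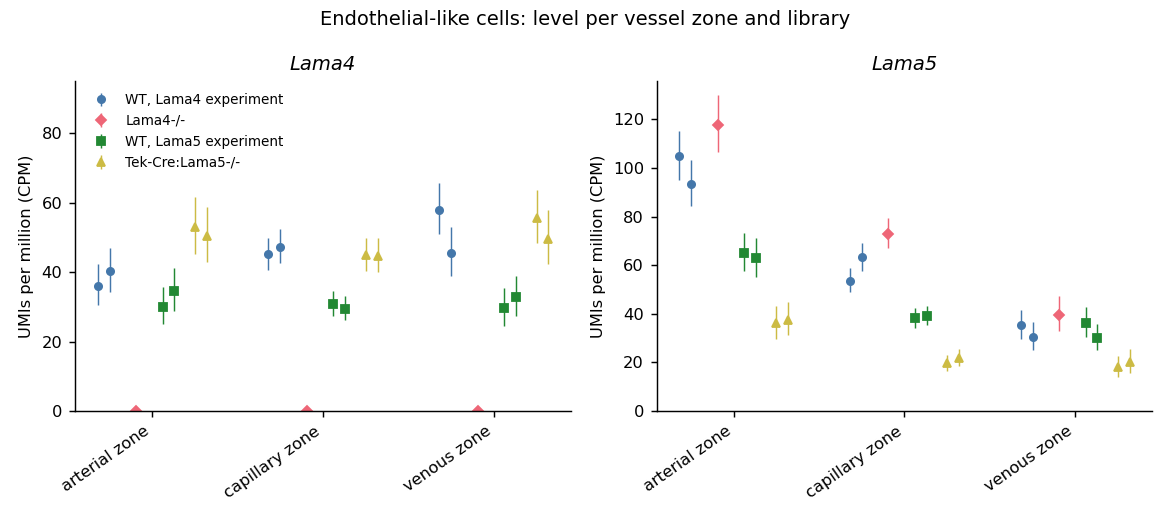
Level of Lama4 (left) and Lama5 (right) in CPM in 3 zones of endothelial-like cells, 1 point per library with its exact Poisson 95% interval. Lama5 steps down from the arterial to the venous zone in each WT group, while Lama4 in the WT of the Lama5 experiment lies between 29.4 and 34.6 in all 3 zones.

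Smooth muscle-like cells carry more Lama5 than endothelial-like cells and sit on arteries, so their markers were read in each zone. The summed level of 8 smooth muscle markers (Acta2, Myh11 and others) in arterial-zone cells was 178 to 250.4 CPM, against 39.6 to 145 CPM in the capillary zone and 38.4 to 86.3 CPM in the venous zone. In every library at least 7 of these 8 markers had a UMI in each zone. The arterial sums were 0.401% to 0.680% of the sums in smooth muscle-like cells of the same library. The 8 pericyte markers summed to 12.4 to 20.01 CPM in the arterial, 13.7 to 29.7 CPM in the capillary and 3.98 to 29.3 CPM in the venous zone, with 5 to 8 of them seen.

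Thinned to 1500 UMIs, 10.2% of arterial-zone, 6.32% of capillary-zone and 4.42% of venous-zone cells of the WT had a Lama5 UMI. Without thinning the shares were 40.7%, 15.6% and 31.9%, so the deep venous-zone cells passed the capillary zone only where depth was not matched. For Lama4 the thinned shares were 3.97%, 4.87% and 6.01% in the same order.

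Lama4 did not follow Lama5. In the arterial zone it stood at 36.0, 40.3, 30.1 and 34.6 CPM in the 4 WT libraries, first those of the Lama4 experiment. In the capillary zone it stood at 45.1, 47.2, 30.8 and 29.4 CPM, and in the venous zone at 58.0, 45.6, 29.6 and 32.8 CPM. The zones overlapped in the Lama5 experiment. None of the 3 contrasts passed the threshold: arterial minus capillary was -0.11 (SE 0.107, edgeR adjusted p = 0.431), venous minus capillary 0.15 (SE 0.104, edgeR adjusted p = 0.292) and arterial minus venous -0.26 (SE 0.117, edgeR adjusted p = 0.0888). In the Lama4 experiment alone the last contrast was -0.49 and passed (edgeR adjusted p = 0.00361), and in the Lama5 experiment alone it was 0.04 (edgeR adjusted p = 0.838). The fit over both experiments called 41.8% of genes in this contrast, and its alternatives called 3720 to 5028 genes. A call by itself is thus common here. Between the experiments this contrast differed by 0.54 (SE 0.182, edgeR adjusted p = 0.0741), which did not pass. This difference was 0.24 without WT library 1 of the Lama4 experiment and 0.77 without WT library 2, where each fit kept only 1 library of that experiment.

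Finer steps of the score were read as well. Cells were ordered in 9 bins by the leading score, each with at least 61 cells per WT library. From the most arterial to the most venous bin Lama5 in the WT went from 65.5 to 112 CPM down to 24.3 to 35.03 CPM. In the middle bin, where both scores were below the mean of the endothelial-like cells of the library, it stood at 36.4 to 62.2 CPM. The venous side did not fall at every step: in WT library 1 of the Lama5 experiment the 4 venous bins had 31.4, 37.4, 31.3 and 35.03 CPM. Lama4 had a dip on the arterial side. It stood at 35.3 to 56.3 CPM in the most arterial bin, at 23.5 to 32.8 CPM in the third bin, and at 29.5 to 47.3 CPM in the middle bin, and in 4 of 4 WT libraries the third bin lay below both. The bins were not tested against each other. The endothelial-like cluster led by Gkn3, Fbln5 and Mgp, genes of larger arteries, had 139.9 and 132 CPM of Lama5 in the WT of the Lama4 experiment and 82.0 and 81.0 CPM in that of the Lama5 experiment, above the arterial zone as a whole in each library.

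**Figure D3:**
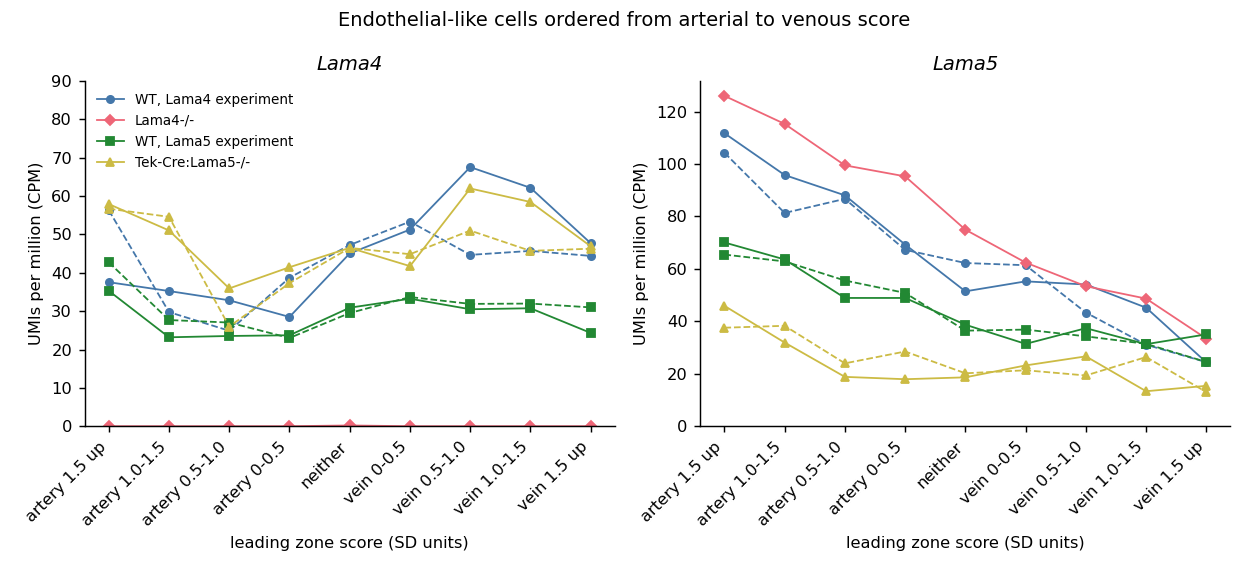
Level of Lama4 (left) and Lama5 (right) in CPM in 9 bins of endothelial-like cells from most arterial to most venous leading score, 1 line per library (the dashed line is the other library of a group). Lama5 is lower in the most venous than in the most arterial bin of each library, without falling at every step, and Lama4 is lower in the third bin than in the first and the middle bin of each WT library.

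The Lama4 share of the UMIs of both chains rose along the vessel in the WT. It was 25.6%, 30.1%, 31.6% and 35.5% in the arterial zone, with exact binomial 95% intervals between 22.0% and 40.6%. In the capillary zone it was 45.7%, 42.8%, 44.7% and 42.9%. In the venous zone it was 62.2% and 59.9% in the Lama4 experiment and 45% and 52.2% in the Lama5 experiment. The arterial share was the lowest of the 3 zones in 4 of 4 libraries. The venous share was the highest in 4 of 4, but in the WT library 1 of the Lama5 experiment it was within 1 percentage point of the capillary share, and its interval of 38.8% to 51.3% held the capillary value.

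In the Tek-Cre:Lama5-/- pool, endothelial-like cells had less Lama5 and more Lama4 than the WT of the same experiment in every zone. Lama5 stood at 22.2 and 23.8 CPM over all endothelial-like cells, where the WT had 42.6 and 41.8 CPM, with a log2 difference of -0.80 (SE 0.0608, edgeR adjusted p = 1.29e-14). Lama4 was at 48.4 and 46.0 CPM, where the WT had 29.6 and 31.0 CPM, a log2 difference of 0.72 (SE 0.0549, edgeR adjusted p = 1.29e-14). Of 13180 genes tested here, 19.8% were called, 10.9% higher and 8.92% lower. Both KO libraries lay outside the WT pair for each gene. The share of all genes for which this holds was not counted, so it is a description only. The KO level of Lama4 lay near that in the WT of the Lama4 experiment, 45.6 and 44.8 CPM, which is another pool and experiment.

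By zone, Lama5 in the KO stood at 36.0 and 37.6 CPM in the arterial zone, 19.6 and 21.8 CPM in the capillary zone and 18.0 and 19.96 CPM in the venous zone. The log2 differences from the WT were -0.72 (SE 0.108, edgeR adjusted p = 5.75e-05), -0.82 (SE 0.0972, edgeR adjusted p = 3.58e-11) and -0.75 (SE 0.149, edgeR adjusted p = 0.000601). Lama4 in the KO stood at 52.9 and 50.3 CPM, 44.9 and 44.7 CPM, and 55.6 and 49.6 CPM in the same zones. Its log2 differences were 0.75 (SE 0.119, edgeR adjusted p = 0.000122), 0.66 (SE 0.0843, edgeR adjusted p = 5.14e-10) and 0.82 (SE 0.114, edgeR adjusted p = 2.18e-06). The share of all genes called was 4.73% in the arterial, 12.2% in the capillary and 7.99% in the venous zone. The KO libraries did not overlap the WT pair for either gene in any zone. Here too the share of all genes that do the same was not counted. With DESeq2 the venous change of Lama5 no longer passed (adjusted p = 0.125).

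The change was of like size in the 3 zones as far as these data resolve it. Tests of the difference in KO effect gave, for Lama5, 0.09 for artery minus capillary (SE 0.151), 0.07 for vein minus capillary (SE 0.180) and 0.02 for artery minus vein (SE 0.185). For Lama4 they gave 0.09 (SE 0.146), 0.16 (SE 0.144) and -0.07 (SE 0.168). No edgeR adjusted p was below 0.918, and 0.316%, 0.237% and 0.36% of 11379 genes were called in the 3 contrasts. The arterial lead of Lama5 was kept in the KO cells: the ratio of arterial to capillary levels was 1.84 and 1.73 in the KO libraries and 1.70 and 1.61 in their WT. The Lama4 share of the UMIs of both chains was 59.5% and 57.2% in the arterial zone, 69.6% and 67.3% in the capillary zone and 75.5% and 71.3% in the venous zone of the KO, each above its WT and in the same order.

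**Figure D4:**
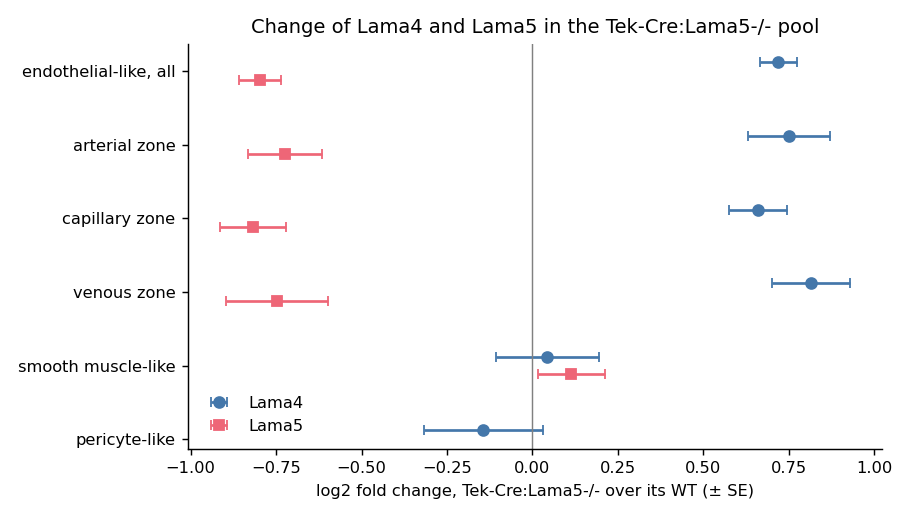
Log2 fold change of Lama4 (circles) and Lama5 (squares) in Tek-Cre:Lama5-/- over its WT, with the standard error of the edgeR fit, for endothelial-like cells, their 3 zones and the mural classes. Lama5 was lower and Lama4 higher in each endothelial zone, while smooth muscle-like values lay near 0; Lama5 in pericyte-like cells had too few UMIs for a fit.

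Mural cells of the same pool gave other values. In smooth muscle-like cells Lama5 stood at 123 and 138 CPM in the KO against 137 and 121 CPM in the WT, which overlap (log2 difference 0.11, SE 0.0978, edgeR adjusted p = 0.599, with 6.37% of genes called, 4.89% higher and 1.48% lower). Lama4 in these cells was 49.7 and 41.4 CPM in the KO and 44.7 and 50.1 CPM in the WT (0.04, SE 0.151, edgeR adjusted p = 0.928). In pericyte-like cells the KO libraries had 156 and 123 CPM of Lama4 and the WT libraries 156 and 164 CPM (-0.14, SE 0.174, edgeR adjusted p = 0.861, with 0.29% of genes called). The main pericyte-like cluster alone, without the small one, had 157 and 121 CPM of Lama4 in the KO and 155 and 166 CPM in the WT. Lama5 in pericyte-like cells had 1 UMI in the KO and 5 in the WT, too few for a fit.

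The difference in KO effect between classes was tested directly. For Lama5 the effect in smooth muscle-like cells was 0.90 above that in endothelial-like cells on the log2 scale (SE 0.133, edgeR adjusted p = 2.21e-08), a contrast that called 0.663% of 13734 genes. For Lama4 the effect in smooth muscle-like cells was below that in endothelial-like cells by a log2 difference of -0.68 (SE 0.182, edgeR adjusted p = 0.0324). In pericyte-like cells it was below by -0.85 (SE 0.209, edgeR adjusted p = 0.0436), where 0.131% of genes were called. Both Lama4 differences lost the call when any 1 of the 4 libraries was left out, with edgeR adjusted p-values of 0.136 to 0.400 for smooth muscle-like and 0.178 to 0.783 for pericyte-like cells, and with DESeq2. The Lama5 difference passed in each of its 9 alternatives.

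**Figure D5:**
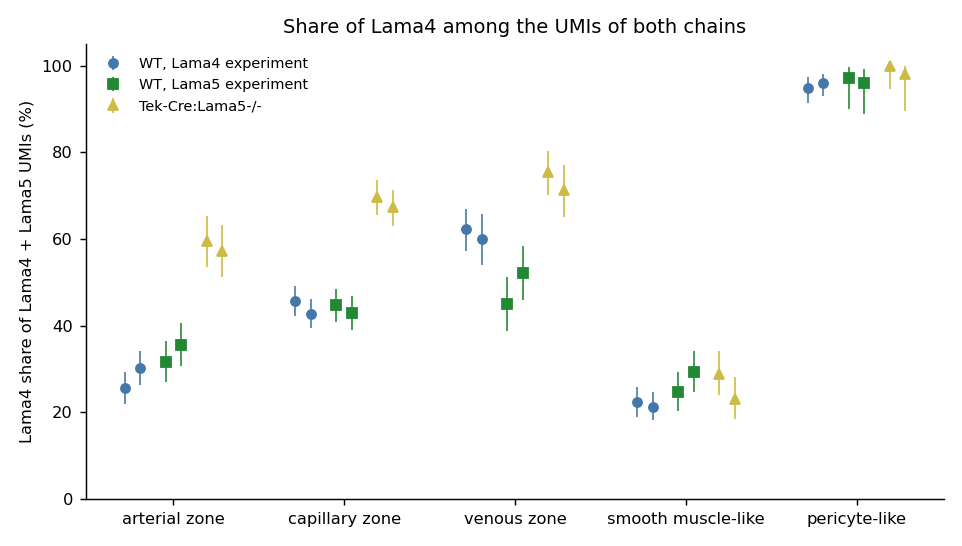
Lama4 share of the UMIs of Lama4 and Lama5 together, in percent, in 3 endothelial zones and the mural classes, 1 point per library with its exact binomial 95% interval. The share is lowest in the arterial zone among endothelial cells, is higher in Tek-Cre:Lama5-/- in each zone, and overlaps the WT in smooth muscle-like cells.

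The Lama4-/- library had almost no Lama4 anywhere. Endothelial-like cells had 1 UMI against 1751 in the WT of the same experiment, a level of 0.133% of the WT (exact 95% interval 0.00336% to 0.742%). Pericyte-like cells had 1 UMI against 470, and smooth muscle-like cells 0 against 257, where the exact 95% interval reaches 4.28% of the WT. The arterial and venous zones had 0 UMIs and the capillary zone 1. With 1 distinct library there is no replicate check for this group, and the values below carry no test.

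Lama5 in this library was above both WT libraries in endothelial-like cells, at 76.9 CPM against 61.8 and 63.1 CPM. The ratio to the WT was 1.23 (exact 95% interval 1.15 to 1.32, counting error only). The arterial zone stood at 118 CPM against 104.8 and 93.5 CPM, a ratio of 1.19 (1.05 to 1.34), and the capillary zone at 73.0 CPM against 53.6 and 63.2 CPM, a ratio of 1.26 (1.13 to 1.40). The venous zone stood at 39.7 CPM against 35.2 and 30.5 CPM, a ratio of 1.20 (0.963 to 1.49). That interval includes 1 and overlaps those of the other zones, so it does not set the venous zone apart. The arterial to venous ratio of Lama5 was 2.97 in the KO library and 2.97 and 3.07 in its WT. Smooth muscle-like cells stood at 147 CPM against 155 and 156 CPM (ratio 0.946, 0.827 to 1.08). The WT libraries themselves ranged from 53.6 to 63.2 CPM in the capillary zone. Over 12722 genes of endothelial-like cells they differed with a chi-square of 3.91 per degree of freedom, where counting error alone gives about 1. The intervals above are thus narrower than the spread between libraries.

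Other basement membrane genes were read through a list of 29: the remaining laminin chains, nidogens, the proteoglycans perlecan and agrin, collagens, and laminin receptors. In WT artery against capillary 23 were tested, 14 were higher and 5 lower, beside 21.1% of all genes in each direction, and the median log2 difference was 0.47 against -0.03 for all genes. The steepest rise was that of Col18a1, which encodes the precursor of endostatin: 143 to 162 CPM in the arterial zone against 2.9 to 3.6 CPM in the capillary zone over the 4 WT libraries, a log2 difference of 5.58 (SE 0.103). Lama3, the laminin α3 chain, followed at 3.63 (SE 0.141) and Lama1, the laminin α1 chain, at 3.22 (SE 0.698), the last from at most 1.6 CPM. The nidogens, which link laminin to collagen IV, were lower in the arterial zone, Nid2 by a log2 difference of -1.64 (SE 0.106) and Nid1 by -1.27 (SE 0.0967). Itga6, a laminin-binding integrin subunit, was lower by -0.84 (SE 0.0650). Lama5 was likewise higher in this contrast, with Lamb2 at 0.94 and Lamc1 at 0.59, while Lama4 did not pass. Higher was the common direction of the list here. In vein against capillary Lama3 was also higher (1.49), where Lama5 was lower (-0.51).

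In WT vein against capillary 6 of 23 were higher and 10 lower, beside 18.7% and 17.7% of all genes, with a median of -0.28 against -0.01. Lama1 was higher by 5.03 (SE 0.519), from at most 6.6 CPM in the venous zone. Itga3, another laminin-binding integrin subunit, was higher by 2.07 (SE 0.0894), and Lama3 by 1.49 (SE 0.193). Col18a1 was lower by -2.56 (SE 0.373), Nid1 by -1.42 (SE 0.0997) and Mcam, an adhesion receptor for the laminin α4 chain, by -1.41 (SE 0.188). Between artery and vein 15 were higher and 5 lower, beside 20.7% and 21.1% of all genes, and Ntn4, the laminin-related netrin 4, was higher in the artery by 3.74 (SE 0.143), Mcam by 3.18 (SE 0.165) and Col18a1 by 8.14 (SE 0.170). Mcam and Ntn4 are also abundant in smooth muscle-like cells, at a level above that of any endothelial zone.

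In endothelial-like cells of the Tek-Cre:Lama5-/- pool 24 of the 29 were tested, 0 were higher and 8 lower, beside 10.9% and 8.92% of all genes, with a median of -0.12 against -0.00275 for all genes. The list overlaps genes already looked at in these samples, so the count is a description. The largest falls were those of Sparc, a collagen-binding matrix protein (-0.37, SE 0.0192, edgeR adjusted p = 2.25e-20), Agrn, agrin (-0.34, SE 0.0328, edgeR adjusted p = 1.61e-11), and Hspg2, perlecan (-0.29, SE 0.0445, edgeR adjusted p = 1.5e-06). The others were Col4a2 (-0.25), Itga1 (-0.24), Lamb2 (-0.22), Col4a1 (-0.21) and Bcam, a receptor for the laminin α5 chain (-0.18). Each of these 8 was smaller in size than the changes of Lama4 and Lama5. In smooth muscle-like cells 2 of 20 tested were lower, Sparc (-0.28) and Itga1 (-0.27), beside 1.48% of all genes. In pericyte-like cells 0 of 18 were called by edgeR, beside 0.29% of all genes, a share at which no call among 18 genes says nothing of the list. The median log2 difference of the list was -0.071 in smooth muscle-like cells (20 genes) and 0.033 in pericyte-like cells (18 genes). A lower median was thus neither shared by all vessel classes nor confined to them: it was -0.35 in microglia-like cells, over 10 tested genes. It was 0.039 in astrocyte-like (10 genes), 0.043 in oligodendrocyte-like (14 genes) and -0.056 in neuroblast-like cells (5 genes).

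Over 49 points, each a class in a WT library with at least 20 cells, the gene most like Lama4 of 12764 ranked was Nid1, nidogen 1, with a Pearson correlation of log2(CPM + 1) of 0.945. It was followed by Tmem45a (0.930), Egflam (0.928), which encodes the matrix protein pikachurin, Adgra2 (0.911), an adhesion receptor of brain vessels, and Lamc3 (0.908), the laminin γ3 chain. For Lama5 the nearest were Tcf7l1 (0.810), Id3 (0.7998), Il1r1 (0.798), Hmg20b (0.797) and Msrb3 (0.792). The correlation of Lama4 with Lama5 was 0.574. The points share libraries and depth, so these values describe 15 classes and carry no p.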

How the data were processed

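UMI counts per gene and cell barcode were used as deposited by the authors, raw and not normalised. The matrices were made with Cell Ranger 3.1.0, per the file headers, and the submitters' processing notes name Cell Ranger, Seurat 3.1 and mm10. Coordinates are those of GENCODE M21 on GRCm38, 1-based, and 31011 of 31053 gene IDs matched it. Lama4, Lama5 and the gene lists were chosen with earlier results of these data known.

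Cells with at least 500 genes and under 15% mitochondrial UMIs were kept (4352 of 56961 barcodes had too few genes, and 2355 more failed on mitochondrial UMIs), and 3015 likely doublets, 0.8% per 1000 cells, were removed by a score against simulated doublets. Each cell was scaled to 10000 UMIs, and 2000 variable genes and 30 components were kept, and clustered by Leiden at resolution 1 (igraph 0.11.9) into 47 clusters. A cluster was named where at least 3 markers of a class were seen in 25% of its cells and at 2-fold the median cluster, and stayed unnamed where it also met at least 3 markers and a 0.5 share of the markers of a second class that is not a near relative (pericyte and smooth muscle, astrocyte and ependymal, and other such pairs were exempt), or had under 15 cells, few UMIs or leading genes of another class (766 cells unnamed in all). Scores for the zones are means of scaled marker levels.

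Counts were summed per library and class or zone and tested over all genes with the quasi-likelihood test of edgeR 4.0.16 (R 4.3.3, filterByExpr, TMM, Benjamini-Hochberg adjusted p under 0.05), where every library held 50 or more cells of a class. Zone contrasts and interactions used the library as a block. Levels are summed CPM, unscaled, with exact Poisson intervals from scipy 1.17.1. Intervals cover counting error only. Counts with 200 changed genes were simulated for the KO effect in endothelial-like and arterial-zone cells, and for artery minus capillary in KO effect and WT. Genes changed by 0.7 on the log2 scale, a part of the 200, were recovered at 92% to 100%, with 4.78% to 7.41% of calls false. Changed genes were drawn only above a set level, and all sums shared 1 mean profile. Recovery was not measured for low counts, mural classes or differences between classes. Named list genes are the 3 with the largest called changes in each direction of a fit, and others named were chosen after their values were seen. Alternatives were DESeq2 1.42.0, its size factors, no filter, each library left out, stricter cells, more doublets removed, other zone boundaries and markers. Zones from clusters, scores from thinned cells and single experiments were added after seeing the data.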

Additional observations from a re-analysis of the deposited data

Results flagged for a closer look

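The 3 tests in which the effect of the Tek-Cre:Lama5-/- pool differed between cell classes are given again here because their interaction passed the threshold. For Lama5 the effect in smooth muscle-like cells minus that in endothelial-like cells was 0.90 on the log2 scale. For Lama4 the same difference was -0.68, and that of pericyte-like minus endothelial-like cells was -0.85. Both Lama4 values lost the call when any library was left out.

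In the WT, the zone contrast of Lama5 differed between the Lama4 and the Lama5 experiment, by 0.52 for vein minus capillary and by -0.59 for artery minus vein. These were tested after the values were seen. The first kept its call in 6 of 14 alternatives and the second in 9 of 14, and neither passed with DESeq2. The experiments also differed in depth, in the clusters that held their endothelial-like cells and in the pool of mice, and the part of each in this difference was not tested.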

How the results depend on the processing

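The analysis is limited by its pools: 1 pool of 3 mice per group, 1 distinct Lama4-/- library, and few Lama5 UMIs in pericyte-like cells and of both genes in rare classes. A fold change counted as the same where its sign and its side of the threshold were kept, also where it was never called. A Lama4-/- ratio counted so within its main interval, and a level within the SD of the WT libraries. Sizes could still move: the arterial lead of Lama5 over capillaries in the WT ranged from 0.65 to 1.27 on the log2 scale. Of 44 results, 30 stayed the same under all of their alternatives. The changes of both genes in endothelial-like cells, in the arterial and capillary zones and of Lama4 in the venous zone of Tek-Cre:Lama5-/-, and the arterial lead of Lama5 in the WT, were among these. With DESeq2 the venous change of Lama5 (-0.75) and the class differences of Lama4 for pericyte-like (-0.86) and smooth muscle-like cells (-0.68) lost the call, and with no filter both of the latter did (-0.84 and -0.69). With stricter cells that for pericyte-like cells did (-0.83). Leaving out 1 library gave -0.98 to -0.70 and -0.79 to -0.57 for these. It gave -0.32 to 0.014 for Lama4 in pericyte-like cells and -0.10 to 0.17 in smooth muscle-like cells. For the zone differences in KO effect it gave -0.037 to 0.21 (Lama4, artery minus capillary), -0.10 to 0.12 (Lama5, artery minus vein) and -0.077 to 0.24 (Lama5, vein minus capillary). For Lama4 in WT artery minus vein it gave -0.35 to -0.063, and the call was gained without WT library 2 of the Lama5 experiment. Between experiments it gave -0.27 to 0.087 (Lama5, artery minus capillary) and -0.38 to 0.010 (Lama4, vein minus capillary). More signs turned among uncalled zone differences in KO effect. For Lama4, artery minus capillary was -0.035 with more doublets removed and -0.025 with zones from clusters, and artery minus vein was 0.037 at the higher boundary. For Lama5, artery minus vein was -0.066 with more doublets removed, -0.090 at the lower boundary and -0.065 without Lcn2, Ackr1 and Lrg1, and vein minus capillary was -0.011 at the higher boundary and -0.016 with zones from clusters. In the WT, zones from clusters turned Lama4 to 0.15 for artery minus capillary, 0.15 for artery minus vein and -0.0022 for vein minus capillary. The Lama5 experiment alone gave Lama4 0.079 for artery minus capillary and 0.041 for artery minus vein, and Lama5 -0.24 for vein minus capillary, no longer called. Lama4 for artery minus vein passed with no filter (-0.26) and in the Lama4 experiment alone (-0.49). Averaging over cells moved Lama4 in smooth muscle-like cells from 45.4 to 50.2 CPM. The cause of these moves was not tested.

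Counts of all genes called moved more. DESeq2 called 985 genes in endothelial-like cells in place of 2613, 126 in place of 612 in smooth muscle-like cells, 6 in place of 18 in pericyte-like cells, and 137, 419 and 203 in place of 493, 1444 and 844 in the arterial, capillary and venous zones. For zone differences in KO effect the alternatives ranged from 3 to 56 around 36, from 5 to 41 around 27 and from 8 to 62 around 41, and for class differences from 0 to 17 around 18 and from 17 to 95 around 91. No filter left 3 genes in pericyte-like, 182 in smooth muscle-like and 770 in capillary-zone cells. Leaving out 1 library gave 29 to 35 in pericyte-like, 347 to 489 in smooth muscle-like, 321 to 563 in arterial-zone, 946 to 1035 in capillary-zone and 511 to 690 in venous-zone cells. The lower boundary gave 747 arterial-zone genes and thinned scores gave 400 venous-zone genes. WT vein minus capillary had 2756 in place of 4184 with zones from clusters. Between experiments the counts ranged from 163 to 1298 around 565, from 370 to 1246 around 1175 and from 284 to 760 around 721.

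The replicate numbers of the Lama5 experiment are not known to pair its samples: same-numbered libraries had a correlation of -0.0287 of their deviations over 13180 genes, with 2 pairs. With the replicate number as a block, Lama4 changed by 0.72 and Lama5 by -0.80 in endothelial-like cells, no call of either gene changed in any class or zone, and 11 genes were called in place of 18 in pericyte-like cells.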
